A study of Homo sapiens with 12 samples.

Results

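The human mitochondrial genome is a small circular chromosome whose 37 genes were all found in the deposited tables by their symbols, which begin with MT-. They are 13 mRNAs, 2 rRNAs and 22 tRNAs among 58288 genes. The cells were HEK-293T, an established human line of embryonic kidney origin with the large T antigen of SV40. They carried a CIRTS protein, an RNA-guided effector assembled from human protein parts, and polyadenylated RNA was sequenced in 12 libraries. The 4 groups of 3 libraries were YTHDF2-SMARCA4 and YTHDF2-NT, with the CIRTS-3 effector made with the m6A reader YTHDF2, and nuclease-SMARCA4 and nuclease-NT, with the CIRTS-12 nuclease effector. SMARCA4 stands for a guide RNA against the mRNA of that chromatin remodelling ATPase, and NT for a non-targeting guide. Every library came from this 1 cell line, all 4 groups carried an effector and a guide, and no group of cells without them was analysed here. The labels give no treatment times and no culture batches, so effector and batch, if batches followed the effectors, cannot be told apart.

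Mitochondrial DNA is transcribed by its own polymerase into long precursors that cover nearly a whole strand. The precursors are cut mostly at the tRNAs that lie between the other genes, and the released mRNAs and rRNAs receive short poly(A) tails. Through these tails a poly(A) selection takes them up together with nuclear mRNA. The mRNAs encode core subunits of complexes I, III, IV and V of oxidative phosphorylation, and the rRNAs build the mitochondrial ribosome that translates them. All the mRNAs except MT-ND6 lie on 1 precursor, called heavy-strand here. MT-ND6 comes from the opposite, light-strand precursor and is known in human cells for having little or no poly(A) tail.

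The sequences of the mRNA ends are shown because they bear on how these RNAs are made and counted. All 37 members matched a transcript of GENCODE release 29 (GRCh38) by identifier and length, and sequences and coordinates on chromosome M are from that release. In 6 mRNAs the reading frame ended 1 or 2 bases into a stop codon, which the poly(A) tail completes. The last 20 bases of these 6 mRNAs, all on the plus strand, follow 5′ to 3′, with the bases beyond the last full codon in capitals.
MT-ND1, bases 4243 to 4262: agcattccccctcaaaccTA
MT-ND2, bases 5492 to 5511: ttttatactaataatcttaT
MT-CO3, bases 9971 to 9990: catctattgatgagggtctT
MT-ND3, bases 10385 to 10404: aggattagactgaaccgaaT
MT-ND4, bases 12118 to 12137: cattaccgggttttcctctT
MT-CYB, bases 15868 to 15887: caaaatactcaaatgggccT

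MT-ATP8 and MT-ATP6 shared 46 bases, and MT-ND4L and MT-ND4 shared 7. Each of these pairs is carried by 1 mature RNA, but its frames are counted as separate genes in the tables. MT-ATP6 and MT-CO3, which are separate mature RNAs, shared 1 base. The bases shared within the 2 pairs are in capitals in the following ends and starts, all on the plus strand.
MT-ATP8 end, bases 8503 to 8572: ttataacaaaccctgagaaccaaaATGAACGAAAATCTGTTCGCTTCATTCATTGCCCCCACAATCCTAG
MT-ATP6 start, bases 8527 to 8596: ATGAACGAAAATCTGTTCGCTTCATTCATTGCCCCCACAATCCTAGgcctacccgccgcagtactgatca
MT-ND4L end, bases 10736 to 10766: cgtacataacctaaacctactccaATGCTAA
MT-ND4 start, bases 10760 to 10790: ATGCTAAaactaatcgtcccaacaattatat

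The mRNAs ranged from 207 bases in MT-ATP8 to 1812 bases in MT-ND5. G made up 35.6% of the bases of MT-ND6 and 6.28% to 16.2% of those of the other 12 mRNAs, which shows the strand it is read from. The tRNAs were 59 to 75 bases long. Each of the 22 tRNAs had 0 estimated counts in every library, and a count of 0 allows up to 3 counts, or 0.166 to 0.326 CPM (counts scaled to library size), for counting error only. Their level cannot be read from these libraries.

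The libraries held 9207196 to 18047859 estimated counts each. YTHDF2-NT 1 and 2 stood apart from the rest in opposite directions in how all genes varied with transcript length. Over 13740 genes, longer transcripts deviated from the 12-library mean at a Spearman rho (log2 deviation with length) of −0.60, 0.57 and −0.30 in YTHDF2-NT 1, 2 and 3, and between −0.31 and 0.38 in the other 9 libraries. SMARCA4, the targeted mRNA, was at 210.2 to 243.4 CPM in YTHDF2-SMARCA4, 234.8 to 302.4 CPM in YTHDF2-NT, 219.6 to 250.0 CPM in nuclease-SMARCA4 and 225.4 to 245.1 CPM in nuclease-NT, and was not called in either guide comparison by the edgeR quasi-likelihood test (adjusted p = 0.703 with YTHDF2 and 0.985 with the nuclease). As a check of the cell line, 7 of 7 genes known in HEK-293 cells, among them the neurofilament gene NEFM and the keratin genes KRT8 and KRT18, were measured at a summed 1140 to 1319 CPM. Of 6 fibroblast markers 4 passed the filter on low counts, at a summed 12.1 to 16.5 CPM, and blood markers together reached at most 1.62 CPM, with HBB at 0 counts in every library, and liver markers at most 0.734 CPM.

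MT-CO2 and MT-CO3 had the highest mean levels of the mitochondrial mRNAs and MT-ND5 the lowest. Levels of different genes are compared here in TPM, the deposited unit that divides counts by effective length. MT-CO2, which encodes the copper-binding subunit of complex IV that receives electrons from cytochrome c, was first in 12 of 12 libraries. It averaged 3170 ± 471 TPM in YTHDF2-SMARCA4, 3979 ± 519 TPM in YTHDF2-NT, 4027 ± 807 TPM in nuclease-SMARCA4 and 4509 ± 832 TPM in nuclease-NT (SD, n = 3 each). MT-CO3, a core subunit of the same enzyme, ranked 2 or 3 in every library. MT-ATP6, the membrane subunit of ATP synthase that forms its proton channel, ranked 3 or 4. MT-CO1, which holds the oxygen-reducing site, ranged from rank 2 to rank 5. The means over 12 libraries of MT-CO2, MT-CO3, MT-ATP6 and MT-CO1 were 3921, 3623, 3324 and 3046 TPM. These steps were smaller than the SD of MT-CO2 within each group, although the order of MT-CO2 over the others held within each library.

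**Figure D1:**
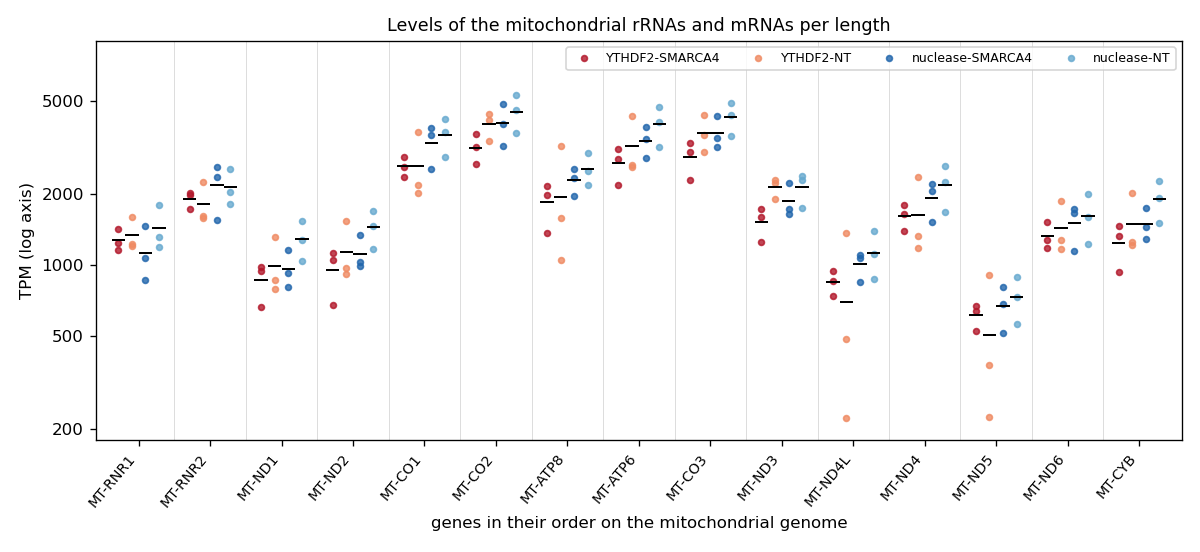
TPM of the 2 rRNAs and 13 mRNAs in genome order on a log axis; each point is 1 library, black lines are means of 3 libraries, and colours are the 4 groups. MT-CO2 is highest among the mRNAs, and 2 YTHDF2-NT libraries lie far below the rest for MT-ND4L and MT-ND5.

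MT-ATP8, a small ATP synthase subunit, followed at 2165 TPM, and the complex I mRNAs were spread over the lower part of the order. MT-ND3 averaged 1927 TPM, MT-ND4 1847, MT-ND2 1165, MT-ND1 1026, MT-ND4L 919 and MT-ND5 628 TPM over the 12 libraries. All of these encode membrane subunits of the complex, and MT-ND5, MT-ND4 and MT-ND2 are the antiporter-like ones that are thought to move protons. MT-ND5 and MT-ND4L took the last place between them in every library. MT-CYB, cytochrome b of complex III, averaged 1536 TPM and the light-strand MT-ND6 1473 TPM, so MT-ND6 stood above MT-ND5, its neighbour on the other strand, by 2.004-fold to 2.42-fold in 10 libraries and by 5.66-fold and 3.10-fold in YTHDF2-NT 1 and 3. The TPM of short genes rests on their effective length, which was 52.2 bases for MT-ATP8 and 119 bases for MT-ND4L, far below their true length, so the place of these members is uncertain. No source used here gives the strand setting of the counting, so RNA antisense to MT-ND6, such as unprocessed heavy-strand precursor, cannot be told apart from MT-ND6 itself.

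Counts of nuclear copies of mitochondrial genes were low next to their parents. The tables list 392 such pseudogenes, and together they held 1.42% to 1.74% as many counts as the 37 members. The most abundant was MTATP6P1 on chromosome 1 (633696 to 634376, plus strand), with 10.8% of the counts of MT-ATP6. It differs from MT-ATP6 at 10 of 681 bases, and 61.3% of the windows of 31 bases in MT-ATP6 occur in it unchanged, so the division of counts between these 2 genes is uncertain.

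Together the 13 mRNAs took up between 1.15% and 2.27% of all estimated counts. Their share was 1.15%, 1.45% and 1.61% in YTHDF2-SMARCA4, and 1.48%, 1.988% and 1.34% in YTHDF2-NT. It was 1.79%, 2.06% and 1.41% in nuclease-SMARCA4, and 1.98%, 2.27% and 1.55% in nuclease-NT. The 4 groups overlapped, and within each group the libraries differed by more than most group means did. Wilson 95% intervals of these shares were at most 0.00797 percentage points to either side and cover counting error only. With both effectors the mean was lower under the SMARCA4 than under the NT guide, by −0.19 on the log2 scale with YTHDF2 and −0.14 with the nuclease. It was also lower with YTHDF2 than with the nuclease, by −0.32 with the SMARCA4 guide and −0.27 with the NT guide. None of these differences exceeded the spread between libraries in a two-sided exact permutation test (p = 0.5, 0.6, 0.3 and 0.3 in that order, where 0.1 is the smallest value that 3 against 3 can give). This test took no pairing into account. By library number, the share was lower in each pair between guides with the nuclease and between effectors with the NT guide. Between guides with YTHDF2 and between effectors with the SMARCA4 guide, library 3 went the other way. No label says that the numbers mark pairs. In bulk RNA, fewer cells rich in mitochondrial RNA and less mitochondrial RNA per cell cannot be told apart.

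**Figure D2:**
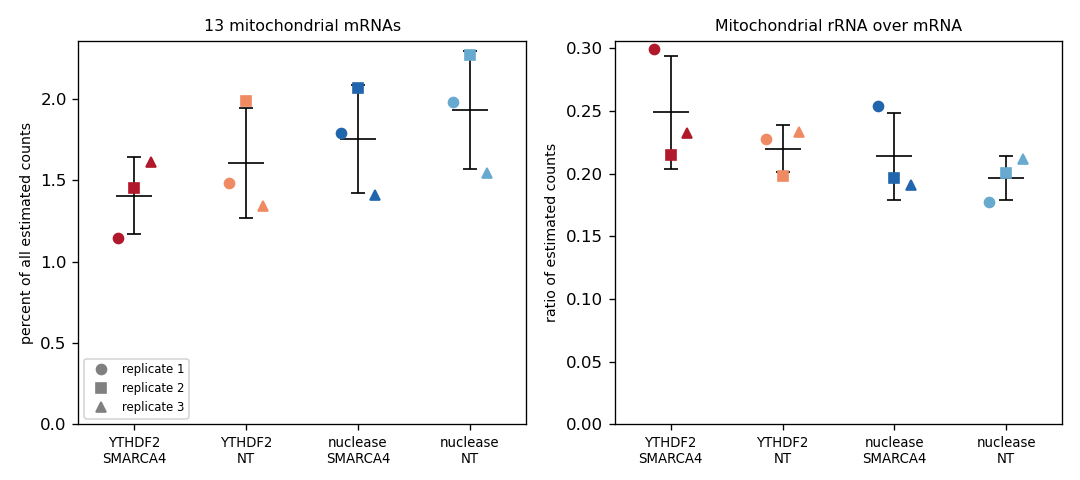
Left, share of the 13 mitochondrial mRNAs in all estimated counts in percent; right, ratio of mitochondrial rRNA to mRNA counts. Symbols are libraries by replicate number and black marks are the mean ± SD of 3 libraries; the groups overlap in both panels.

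Within the mitochondrial mRNAs, complex IV held the largest share of counts and the heavy-strand complex I mRNAs the next. Complex IV made up 46.8% ± 1.31 in YTHDF2-SMARCA4, 48.1% ± 3.37 in YTHDF2-NT, 48.4% ± 0.617 in nuclease-SMARCA4 and 46.9% ± 0.726 in nuclease-NT (SD, n = 3 each). The 6 heavy-strand complex I mRNAs made up 32.3% ± 0.612 in YTHDF2-SMARCA4, 29.7% ± 3.19 in YTHDF2-NT, 30.7% ± 0.421 in nuclease-SMARCA4 and 31.4% ± 0.503 in nuclease-NT. Complex V followed at 9.41% to 10.6% over the 12 libraries, MT-CYB at 7.21% to 8.94% and MT-ND6 at 2.54% to 3.29%. Counts grow with gene length, so these shares describe the libraries and not molecules.

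For both effectors the share of MT-CYB was lower under the SMARCA4 than under the NT guide, with no overlap between libraries in counts. It was 7.21%, 8.32% and 8.37% in YTHDF2-SMARCA4, against 8.57%, 8.85% and 8.87% in YTHDF2-NT. In nuclease-SMARCA4 it was 7.48%, 8.04% and 8.38%, against 8.73%, 8.94% and 8.73% in nuclease-NT. In counts all 6 libraries with the SMARCA4 guide thus lay below all 6 with the NT guide. In TPM the YTHDF2 groups overlapped, at 5.08%, 5.73% and 5.77% in YTHDF2-SMARCA4, against 5.62%, 6.03% and 5.94% in YTHDF2-NT. The log2 difference was −0.14 with YTHDF2 and −0.15 with the nuclease, and the exact permutation test gave p = 0.1 for each, its smallest possible value, or 0.467 after Benjamini-Hochberg adjustment over the 28 share comparisons. The YTHDF2 difference was −0.09 in TPM (exact permutation p = 0.3), and −0.07 in counts without YTHDF2-SMARCA4 1. In the fit of all genes the fold change of MT-CYB was not called, as given with the other members. MT-CYB was not alone in having shares without overlap in counts. With the nuclease, MT-ND1 was at 3.84%, 4.30% and 4.26% under the SMARCA4 guide, against 4.67%, 4.88% and 4.85%, and MT-ND2 was also lower. With YTHDF2, MT-ATP6 and MT-CO3 were lower. With each effector the share of MT-CO1 was higher under the SMARCA4 guide without overlap. The fitted level of MT-CO1 was at −0.11 with YTHDF2 and 0.02 with the nuclease (log2 fold change), so a higher share was not a higher level. The shares add up to a fixed total, so a higher share of 1 mRNA goes with lower shares of others. Groups without overlap correspond to no more than the smallest possible p of 0.1. These single shares were not tested, and no rate over all genes was available for them.

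The share of the light-strand MT-ND6 was higher with YTHDF2 than with the nuclease under the NT guide. It was 3.24%, 2.94% and 2.96% in YTHDF2-NT, against 2.62%, 2.82% and 2.54% in nuclease-NT, without overlap (log2 difference 0.19, exact permutation p = 0.1, adjusted p = 0.467). Under the SMARCA4 guide it was 3.29%, 2.89% and 3.13% in YTHDF2-SMARCA4, against 3.21%, 2.75% and 2.68% in nuclease-SMARCA4, where the groups overlapped (0.11, exact permutation p = 0.3). Between guides the difference in this share was 0.03 with YTHDF2 (exact permutation p = 0.8) and 0.11 with the nuclease (exact permutation p = 0.4), and both pairs of groups overlapped.

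Of the other shares, 3 also reached the smallest possible p of 0.1 in 1 comparison each, again at an adjusted p of 0.467. Complex IV was at 48.3%, 49.1% and 47.9% in nuclease-SMARCA4, against 47.0%, 46.1% and 47.6% in nuclease-NT. In TPM these groups overlapped and the log2 difference was 0.03 (exact permutation p = 0.3), against 0.05 in counts. Complex V was at 9.41%, 9.97% and 10.05% in YTHDF2-SMARCA4, against 10.3%, 10.6% and 10.2% in YTHDF2-NT. In TPM the difference for complex V had the opposite sign. Heavy-strand complex I was at 31.7%, 32.9% and 32.1% in YTHDF2-SMARCA4, against 31.1%, 30.3% and 30.7% in nuclease-SMARCA4.

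**Figure D3:**
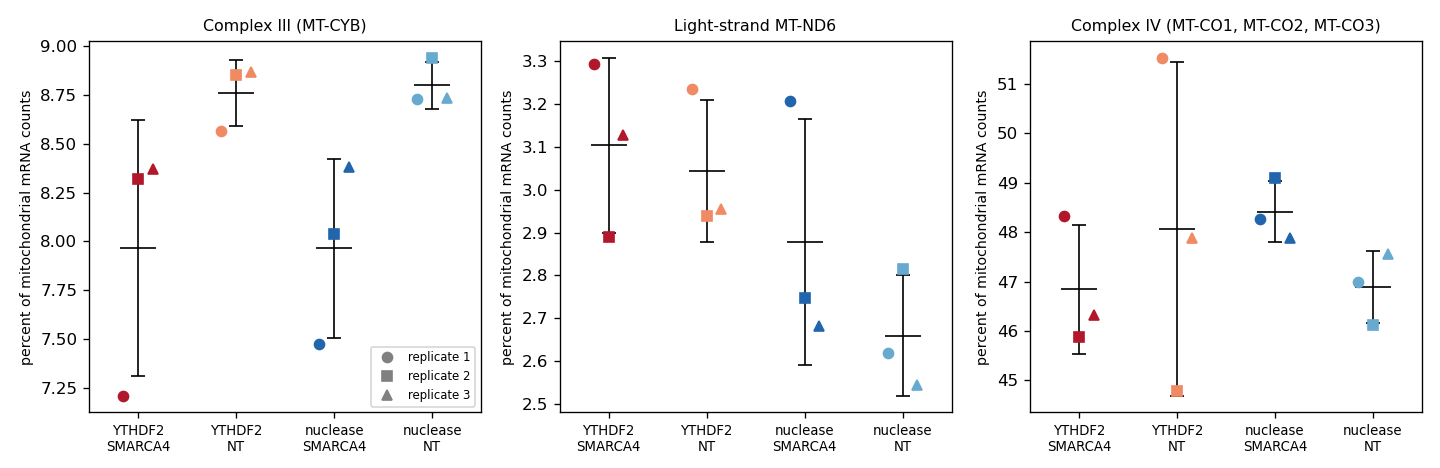
Share of MT-CYB, MT-ND6 and the 3 complex IV mRNAs in the counts of the 13 mitochondrial mRNAs, in percent, on axes that do not start at 0. Symbols are libraries by replicate number and black marks are the mean ± SD of 3 libraries; for MT-CYB the libraries with the SMARCA4 guide lie at or below 8.38% and those with the NT guide at or above 8.57%.

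The rRNAs were counted less than the mRNAs in every library. The ratio of rRNA to mRNA counts was 0.30, 0.21 and 0.23 in YTHDF2-SMARCA4, and 0.23, 0.20 and 0.23 in YTHDF2-NT. It was 0.25, 0.20 and 0.19 in nuclease-SMARCA4, and 0.18, 0.20 and 0.21 in nuclease-NT. The first library of each SMARCA4 group was the highest of its group, and the groups overlapped in all 4 comparisons, with exact permutation p-values from 0.3 to 0.7. MT-RNR2, the large-subunit rRNA, averaged 1920 ± 162 TPM in YTHDF2-SMARCA4, 1821 ± 389 TPM in YTHDF2-NT, 2188 ± 554 TPM in nuclease-SMARCA4 and 2150 ± 382 TPM in nuclease-NT (SD, n = 3 each). MT-RNR1, the small-subunit rRNA, averaged 1276 ± 133, 1345 ± 219, 1130 ± 305 and 1439 ± 317 TPM in the same groups. These are levels after poly(A) selection, not levels in the cell.

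No mitochondrial gene was called between guides or effectors. The 15 mRNAs and rRNAs passed the filter on low counts, and a call here means an edgeR quasi-likelihood p below 0.05 once adjusted over 16297 genes (Benjamini-Hochberg). With the SMARCA4 guide against the NT guide 0 of 15 were called for YTHDF2, where 0% of all genes were called, and 0 of 15 for the nuclease, where 0.00614% were. For YTHDF2 against the nuclease 0 of 15 were called with the SMARCA4 guide and 0 of 15 with the NT guide, where 0.00614% and 0.0491% of all genes were called. The difference of the guide effects between effectors, with 0% of all genes called, had 0 of 15 called as well. At an unadjusted p below 0.05 there were 3, 0, 3, 0 and 1 members in these comparisons in that order, where 6.82%, 10.9%, 11.5%, 10.9% and 11.1% of all genes were. DESeq2 and limma called 0 members in each. Of the 16297 genes DESeq2 called 1, 140, 102, 108 and 55 in the same order, and limma 0, 1, 1, 8 and 0.

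**Figure D4:**
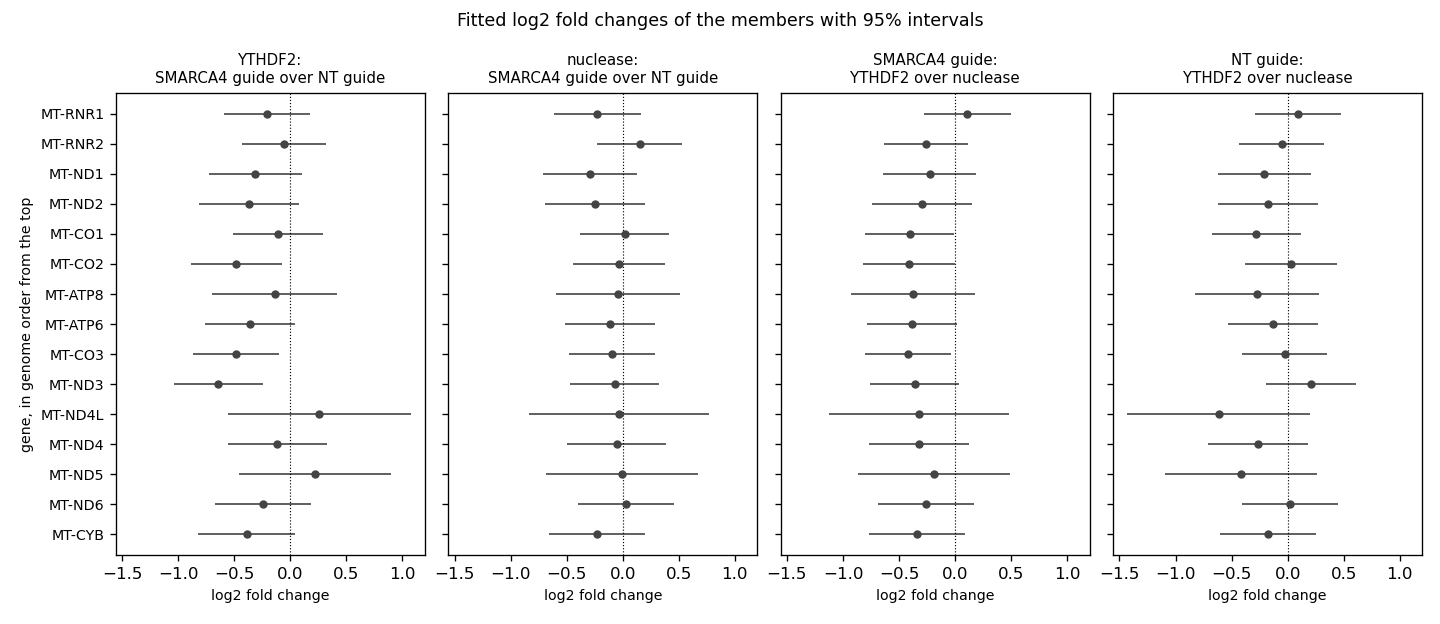
Log2 fold changes of the 15 measured members with 95% intervals from the fit of all 12 libraries, in genome order, for the 2 guide comparisons and the 2 effector comparisons. Most intervals span 0, and the widest belong to MT-ND4L and MT-ND5.

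With YTHDF2, most members had lower fitted levels with the SMARCA4 guide, none of which passed the test. The log2 fold change was negative for 13 of 15 members, with a median of −0.24, against a median of −0.01 over all genes. Most members come from 1 precursor, and all of them share the mitochondrial content of each library. Counts of members with 1 sign, here and below, are thus not counts of independent genes. The median ran from −0.38 to −0.14 when 1 library was left out, and was −0.11 with the trend of each library with transcript length removed. Single members ran from −0.64 for MT-ND3 to 0.26 for MT-ND4L. MT-ND3, on the plus strand at bases 10059 to 10404, was at 189.2, 250.6 and 277.6 CPM in YTHDF2-SMARCA4, against 465.3, 333.5 and 321.4 CPM in YTHDF2-NT. The groups did not overlap for this 1 of 15 members, where 4.98% of all genes lay lower and 4.29% higher without overlap. Its log2 fold change was −0.64 (SE 0.185, unadjusted p = 0.00408, edgeR adjusted p = 0.703), or −35.9% with a 95% interval from −51.4% to −15.5%. The fit pools 1 estimate of spread over the 4 groups. MT-CO3 was at 1261, 1718 and 1909 CPM in YTHDF2-SMARCA4, against 2618, 2368 and 1853 CPM in YTHDF2-NT (−0.48, SE 0.178, edgeR adjusted p = 0.703). MT-CO2 was at 1229, 1507 and 1749 CPM in YTHDF2-SMARCA4, against 2534, 1987 and 1732 CPM in YTHDF2-NT (−0.48, SE 0.19, edgeR adjusted p = 0.703). For both, the groups overlapped at 1 library of YTHDF2-NT. MT-ND3, MT-CO3 and MT-CO2 were also the members whose share stood highest in YTHDF2-NT 1, and the MT-ND3 value was −0.45 without that library and −0.40 with the length trend removed.

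MT-ND5 and MT-ND4L had positive values in this comparison, with libraries of YTHDF2-NT on both sides. MT-ND5 was at 776.8, 975.7 and 1046 CPM in YTHDF2-SMARCA4, against 445.5, 1334 and 620.6 CPM in YTHDF2-NT. MT-ND4L was at 79.7, 105.5 and 97.6 CPM in YTHDF2-SMARCA4, against 32.2, 146.3 and 58.5 CPM in YTHDF2-NT. YTHDF2-NT 2 was thus above, and YTHDF2-NT 1 and 3 below, every library with the SMARCA4 guide. The fold changes were 0.22 for MT-ND5 and 0.26 for MT-ND4L (edgeR adjusted p = 0.863 and 0.868). Without YTHDF2-NT 1 they turned to −0.07 and −0.11. Without YTHDF2-NT 2 they were 0.81 and 1.06 and passed (edgeR adjusted p = 0.0332 and 0.0243), as did MT-ND3 at −0.71 (adjusted p = 0.0358). That fit without YTHDF2-NT 2 called 1585 of 16760 genes.

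With the nuclease no member was called and no interval excluded 0. Fitted log2 fold changes between the guides were negative for 12 of 15 members, with a median of −0.05 against −2.5e-04 over all genes, from −0.29 for MT-ND1 to 0.15 for MT-RNR2. The median turned positive without nuclease-NT 2 (0.07) or nuclease-SMARCA4 3 (0.08), was −0.20 without nuclease-NT 3 and −0.21 without nuclease-SMARCA4 2, and was −0.20 with the length trend removed, where 14 of 15 members were negative. In both nuclease groups the mitochondrial mRNA share was highest in library 2 and lowest in library 3. Leaving out 1 library thus also unbalanced the library numbers, and the part of this in the turn was not tested. MT-ND1 was at 694.4, 911.2 and 595.7 CPM in nuclease-SMARCA4, against 900.8, 1069 and 725.4 CPM in nuclease-NT (−0.29, SE 0.193, edgeR adjusted p = 0.609). The groups overlapped for MT-ND1 as for each of the 15 members, where 12.2% of all genes lay lower and 12.8% higher without overlap. MT-ND2 (−0.25, SE 0.206) and MT-RNR1 (−0.23, SE 0.178) had the next smallest p-values (edgeR adjusted p = 0.697 and 0.676). The 15 intervals reached from a change of −44.0% at their lowest to 70.6% at their highest, both for MT-ND4L. Those of other members were narrower, for example −28.2% to 22.1% for MT-CO3. With 3 libraries a group, changes within the interval of each member were not excluded. MT-CYB was at −0.23 (SE 0.199) with the nuclease and at −0.39 (SE 0.199) with YTHDF2 (edgeR adjusted p = 0.714 and 0.703).

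The difference of the guide effects, YTHDF2 minus nuclease, had its smallest p for MT-ND3 at −0.57 (SE 0.261, unadjusted p = 0.0479, edgeR adjusted p = 0.451). MT-CO2 (−0.44) and MT-CO3 (−0.39) followed (edgeR adjusted p = 0.541 and 0.571). With the length trend removed these were −0.16, −0.17 and −0.15, and the median of the 15 members was 0.01, against −0.13 without that step. A difference between the effectors in how the members responded to the guide was not shown. Without YTHDF2-NT 2, MT-ND4L passed at 1.09 (edgeR adjusted p = 0.0393), in a fit that called 1444 of 16760 genes.

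Between effectors, the members had lower fitted levels with YTHDF2 under the SMARCA4 guide, again without a call. The log2 fold change was negative for 14 of 15 members, including all 13 mRNAs, with a median of −0.32 against 7.3e-04 over all genes. MT-RNR1 was the exception at 0.11. MT-CO3 was at 1261, 1718 and 1909 CPM in YTHDF2-SMARCA4, against 2043, 2649 and 1835 CPM in nuclease-SMARCA4 (−0.42, SE 0.178, unadjusted p = 0.0352, edgeR adjusted p = 0.41). MT-CO1 was at 2936, 3354 and 3767 CPM in YTHDF2-SMARCA4, against 4735, 5279 and 3320 CPM in nuclease-SMARCA4 (−0.41, SE 0.185, edgeR adjusted p = 0.433). MT-CO2 was at 1229, 1507 and 1749 CPM in YTHDF2-SMARCA4, against 1958, 2478 and 1545 CPM in nuclease-SMARCA4 (−0.42, SE 0.19, edgeR adjusted p = 0.434). In each of the 3, nuclease-SMARCA4 3 lay within the range of YTHDF2-SMARCA4, and the groups overlapped for all 15 members, where 13.4% of all genes lay lower and 13.4% higher without overlap. The median was −0.18 without nuclease-SMARCA4 2, −0.21 without YTHDF2-SMARCA4 1 and −0.46 without nuclease-SMARCA4 3.

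Under the NT guide no member was called either. The log2 fold change of YTHDF2 over the nuclease was negative for 11 of 15 members, with a median of −0.17 against 0.01 over all genes. MT-ND4L was at 32.2, 146.3 and 58.5 CPM in YTHDF2-NT, against 120.8, 147.6 and 92.8 CPM in nuclease-NT (−0.61, SE 0.378, edgeR adjusted p = 0.588). MT-CO1 was at 3347, 4493 and 3012 CPM in YTHDF2-NT, against 4562, 5082 and 3535 CPM in nuclease-NT (−0.28, SE 0.185, edgeR adjusted p = 0.609). MT-ND5 was at 445.5, 1334 and 620.6 CPM in YTHDF2-NT, against 1087, 1296 and 823.3 CPM in nuclease-NT (−0.42, SE 0.315, edgeR adjusted p = 0.662). Groups overlapped for all 15 members, where 5.96% of all genes lay lower and 6.86% higher without overlap. The median ran from −0.33 to −0.05 when 1 library was left out. With the length trend removed it was −0.26, with all 15 members negative, and −0.22 under the SMARCA4 guide. The difference between the guides in this contrast is the difference of guide effects given above. Without YTHDF2-NT 2, MT-ND4L (−1.42), MT-ND5 (−1.01) and MT-ATP8 (−0.70) passed (edgeR adjusted p = 0.0089, 0.0151 and 0.037). That fit called 1610 of 16760 genes in this comparison. Without YTHDF2-NT 1, MT-ND4L and MT-ND5 were at −0.25 and −0.13. The comparisons with YTHDF2 in them share libraries, so their similar values are not independent of each other.

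The mix of mitochondrial mRNAs varied most within the YTHDF2-NT group. MT-ND4L lies at bases 10470 to 10766 and MT-ND5 at bases 12337 to 14148, both on the plus strand. In YTHDF2-NT 1, MT-ND4L made up 0.20% of the mitochondrial mRNA counts, in YTHDF2-NT 3 0.42%, and in the other 10 libraries 0.61% to 0.74%. MT-ND5 made up 2.70% in YTHDF2-NT 1, 4.50% in YTHDF2-NT 3 and 5.35% to 7.01% in the others. MT-ND3 ran opposite, at 2.82% in YTHDF2-NT 1, 2.33% in YTHDF2-NT 3 and 1.55% to 1.87% in the others. MT-CO2 stood at 15.4% and 12.6% in those libraries, against 10.1% to 11.7% in the others. In TPM, MT-ND5 over MT-ND3 was 0.10 in YTHDF2-NT 1 and 0.20 in YTHDF2-NT 3, and 0.31 to 0.46 in the other 10 libraries.

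Genes that share 1 mature RNA also came apart in that library. MT-ND4 over MT-ND4L in TPM was 5.31 in YTHDF2-NT 1 and 2.75 in YTHDF2-NT 3, and 1.74 to 2.11 in the others. MT-ATP6 over MT-ATP8 was 2.56 in YTHDF2-NT 1 and 1.34 to 1.66 in the others. The SD over the 13 mRNAs of the log2 deviation of their shares was 0.61 in YTHDF2-NT 1, 0.21 in YTHDF2-NT 3 and 0.06 to 0.20 in the other 10 libraries. YTHDF2-NT 1 was also the library with the strongest trend of all genes with transcript length, at a rho of −0.60, and YTHDF2-NT 3 had −0.30. Other libraries had trends of like size with a smaller SD. Nuclease-SMARCA4 2 had a rho of −0.31 and the smallest SD, 0.06. YTHDF2-NT 2 had a rho of 0.57 and an SD of 0.15. Among the 13 mRNAs the deviation ranked only weakly with length in YTHDF2-NT 1 and 3, at rho −0.21 and −0.18, given as a description. Over all libraries this rho ran from −0.40 in nuclease-SMARCA4 3 to 0.30 in nuclease-NT 1. The part of the length trend in the shift of the mRNA mix was not tested.

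**Figure D5:**
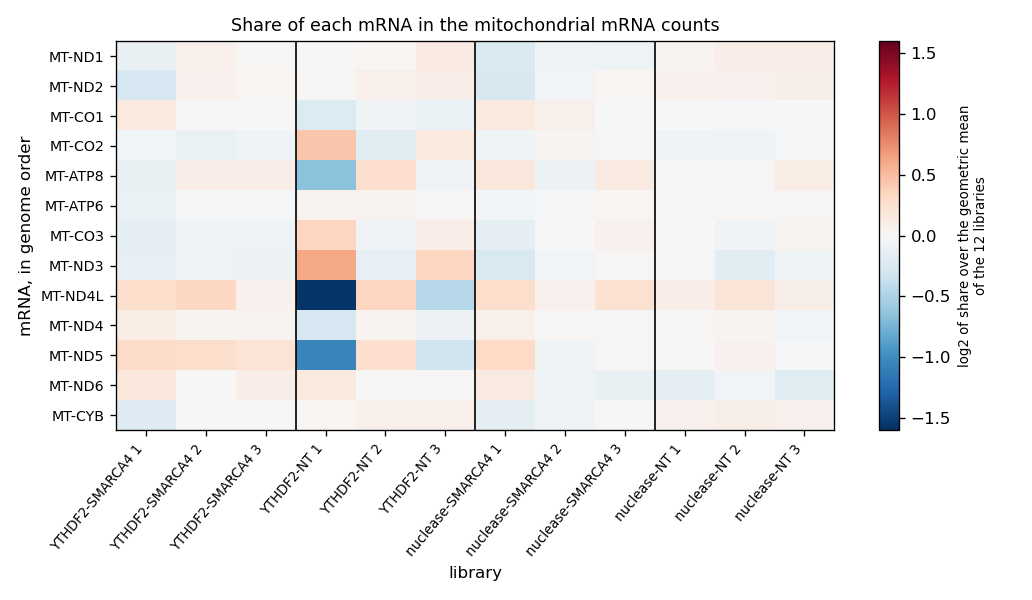
Log2 of each mRNA's share in the mitochondrial mRNA counts over its geometric mean in the 12 libraries; rows are the 13 mRNAs in genome order, columns the libraries, and lines separate the groups. YTHDF2-NT 1 holds the strongest values, down to −1.57 for MT-ND4L and −1.06 for MT-ND5 and up to 0.62 for MT-ND3.

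The nuclear genes that make and keep mitochondrial RNA were not called either. Of 9 transcription factors and polymerase genes, 10 processing factors, 8 factors of stability, polyadenylation and decay, and 8 factors of mtDNA replication and packaging, 0 were called by edgeR in any of the 5 comparisons. In the YTHDF2 guide comparison the smallest p of each list belonged to POLRMT, the mitochondrial RNA polymerase (−0.20), HSD17B10, a subunit of the ribonuclease P that frees tRNA ends (−0.26), SLIRP, the partner of LRPPRC in stabilizing mRNAs (−0.32), and SSBP1, the single-strand DNA binding protein (−0.19). Their edgeR adjusted p was 0.703, 0.721, 0.703 and 0.703. In the nuclease guide comparison they were MTERF1, a termination factor (−0.17), FASTKD3, an RNA-binding protein of the matrix (−0.34), PDE12, which removes poly(A) tails (−0.32), and MGME1, a nuclease of mtDNA replication (−0.27), at an edgeR adjusted p of 0.579, 0.425, 0.301 and 0.219.

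MGME1 was at 83.0 ± 1.39, 80.4 ± 3.96, 71.3 ± 1.62 and 86.0 ± 7.48 CPM in YTHDF2-SMARCA4, YTHDF2-NT, nuclease-SMARCA4 and nuclease-NT (SD, n = 3 each). PDE12 was at 68.3 ± 3.89, 67.1 ± 9.66, 58.0 ± 5.83 and 72.2 ± 1.92 CPM in the same groups. Both were thus lowest in nuclease-SMARCA4. Both passed between the guides when only the 6 nuclease libraries were fitted (edgeR adjusted p = 0.0431 for MGME1 and 0.0351 for PDE12), a fit that called 550 of 15426 genes. Between effectors under the SMARCA4 guide, FASTKD5, needed to mature MT-CYB and MT-CO1 mRNA, was at 0.28 (SE 0.074, edgeR adjusted p = 0.243), MTERF1 at 0.26, PDE12 at 0.24 and MGME1 at 0.22 (adjusted p = 0.385, 0.417 and 0.331). When only the libraries with the SMARCA4 guide were fitted, FASTKD5 and MGME1 passed (edgeR adjusted p = 0.0457 and 0.0402) and PDE12 did not (0.0807). That fit called 660 of 15542 genes. Under the NT guide, TRMT10C, another subunit of the ribonuclease P, was at 0.25, REXO2, an exonuclease of short RNAs, at 0.27, SSBP1 at 0.28 and MTERF4, which acts on the mitochondrial ribosome, at 0.10 (edgeR adjusted p = 0.326, 0.291, 0.322 and 0.704). For the difference of guide effects the smallest p belonged to POLRMT (−0.27), KIAA0391, the catalytic subunit of the ribonuclease P (−0.24), PDE12 (0.34) and MGME1 (0.32), at an edgeR adjusted p of 0.494, 0.451, 0.431 and 0.38.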

How the data were processed

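Each deposited table gives estimated counts for 200403 targets of 1 library. Per the submitters' processing notes kallisto was used, and sleuth and hg38 are named as well, without versions. The deposited TPM values divide the estimated counts by effective length, per the file headers, and keep no depth. Kallisto divides reads among targets of like sequence, so overlapping frames and pseudogenes can trade counts, and antisense RNA can be counted with its partner. Estimated counts were added up by gene ID and rounded. The main test was edgeR 4.0.16 (quasi-likelihood, two-sided) under R 4.3.3, with TMM, filterByExpr, 1 mean per group over 12 libraries and 8 residual degrees of freedom. Genes that passed the filter held 99.8% or more of each library. The biological coefficient of variation was 11.4%. CPM of single genes are counts scaled by TMM library size, and those of marker sums and of the limit for a count of 0 are scaled by the plain library total. Alternatives were DESeq2 1.42.0, voom of limma 3.58.1, RLE scaling, other filters and subsets, a lowess fit (span 0.5) of the length trend, and a replicate block. Log2 shares were compared by two-sided exact permutation tests over 28 comparisons. Samples were grouped by their titles. The series text calls replicates biological and no label names separate cultures, so the p-values reflect spread among these libraries, which may be technical.

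Members described in full were those called or, without a call, the 3 with the smallest p per comparison, and per list of nuclear factors the gene with the smallest p. Members that passed without 1 library, and the other values of YTHDF2-NT, were added after their values were seen. The members, lists and tests were chosen with earlier results of these data known.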

Additional observations from a re-analysis of the deposited data

How the results depend on the processing

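The count of called members was 0 in every comparison and moved away from 0 in 2 kinds of fit. Without a filter on low counts it was 6 (YTHDF2 guide comparison), 2 (difference of guide effects), 3 (effectors, NT guide) and 8 (effectors, SMARCA4 guide), all lower, in fits that called 214 to 493 of 34569 genes. Leaving out 1 library gave 0 to 3, 0 to 1 and 0 to 3 in the first 3 of these, with YTHDF2-NT 2 as the library. Without that library 1444 to 1610 of 16760 genes were called in these comparisons. RLE scaling, scaling from other genes, DESeq2, limma, fits of the compared groups alone, removal of the length trend, a fit with replicate block and pseudogene counts added gave 0 in every comparison. Of all genes, DESeq2 called 1 to 140, the fits of the compared groups alone 0 to 660, removal of the length trend 0 to 37 and the others 0 to 8. A count of 0 members lay near these shares of all genes. Removal of the length trend moved the median of the members by over 1.5 times in the YTHDF2 guide comparison (−0.11), the nuclease guide comparison (−0.20) and the difference of guide effects (0.01). With the replicate block MT-ND3 was at −0.63 in the YTHDF2 guide comparison (adjusted p = 0.792), and it changed no call. Over all genes tested, same-numbered libraries deviated together at r from −0.20 to 0.06, and libraries of different number at −0.12 to 0.20. This does not settle whether the members were paired by number. The mitochondrial mRNA share was highest in library 2 and lowest in library 3 of nuclease-NT, nuclease-SMARCA4 and YTHDF2-NT, but not of YTHDF2-SMARCA4. The permutation tests of shares took no pairing into account. In TPM the share difference reversed for complex III (effectors, SMARCA4 guide, 0.00808) and complex V (YTHDF2 guide 0.0499, effectors with NT guide −0.0834). Leaving out 1 library, log2 differences of shares ran from −0.292 to 0.00971 for all mRNAs and from −0.0168 to 0.187 for rRNA over mRNA (nuclease guide), from −0.0163 to 0.0784 for MT-ND6 and from −0.0848 to 0.0162 for complex IV (YTHDF2 guide), from −0.0177 to 0.0833 for complex IV and from −0.0152 to 0.00955 for complex III (effectors, NT guide), and from −0.0462 to 0.0688 for complex III (effectors, SMARCA4 guide), each crossing 0. Over the same fits HSD17B10 ran from −0.430 to 0.0217, MT-ND5 from −0.0664 to 0.813 and MT-ND4L from −0.110 to 1.06 (YTHDF2 guide), and MT-ND4L from −0.0753 to 1.09 in the difference of guide effects, with YTHDF2-NT 1 left out where the sign turned. The causes were not tested. Apart from the tRNAs at 0, the members had at least 403 counts in a library. The part of depth in these results was not tested.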

Other observations

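The balance of the 2 rRNAs was looked at after its values were seen and is given without a test. In TPM, MT-RNR2 over MT-RNR1 was 1.80, 2.23 and 1.82 in nuclease-SMARCA4, against 1.71, 1.43 and 1.38 in nuclease-NT. It was 1.61, 1.49 and 1.43 in YTHDF2-SMARCA4, against 1.32, 1.42 and 1.30 in YTHDF2-NT. The libraries with the SMARCA4 guide thus lay above those with the NT guide for each effector, with 1.425 against 1.422 in the closest YTHDF2 pair. Neither rRNA was called by edgeR in either guide comparison.

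The pseudogene MTND1P23, a nuclear fragment of MT-ND1, had 915 estimated counts in YTHDF2-NT 1 and 23.2 to 102.4 in the other 11 libraries. MT-ND1 itself had 9251 estimated counts in that library and 4.49% of the mitochondrial mRNA counts, within its range of 3.84% to 4.93%.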
